A study of Mus musculus with 36 samples.

Results

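Spleen and thymus of untreated mice with wild-type p53 (wt) were compared gene by gene in 3 paired-end RNA-seq libraries of spleen and 3 of thymus. These 6 of the 36 libraries of the study were chosen by their titles, which name genotype, organ, the absence of treatment and the read layout, and no measured value entered the choice. The study as a whole profiled liver, spleen and thymus of wt mice and of mice lacking the C-terminus of p53, and every mouse behind the 6 libraries carried wild-type p53 and was not irradiated. For comparison, 3 wt spleen and 3 wt thymus paired-end libraries taken 3 h after 2 Gy of X-rays, and 3 wt spleen and 3 wt thymus single-end libraries titled xray, were set beside them. The labels used here name no strain, age or animal. RNA came from whole pieces of organ, so each library mixes many cell types, and fewer cells of a type and less RNA per cell cannot be told apart.

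The thymus is the organ in which T cells form. Its epithelium draws in blood-borne progenitors, which rearrange their T cell receptor genes, pass through a stage with both CD4 and CD8 on the surface, and mostly die by apoptosis when their receptor is not selected. The spleen filters blood. Its white pulp holds mature B and T cells, its red pulp holds macrophages that break down old red cells, and in the mouse it goes on making red cells and platelets in adult life. p53, encoded by Trp53, is a transcription factor that is held low by Mdm2 and Mdm4 and that, once DNA is broken, turns on genes for cell cycle arrest, repair and death. The death signal runs through the BCL2 family at the mitochondrion to the apoptosome and caspases, and lymphoid organs are known for dying readily after irradiation.

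Levels are the deposited normalised signal of a gene, which is its reads divided by a scaled library size. A difference is that of log2(signal + 0.5), spleen minus thymus, given with its standard error (SE), and a gene is said to be called when its limma p, adjusted over all genes tested, was under 0.05. Signal is not divided by gene length, so levels are compared between organs within a gene and not between genes. The libraries held 50106080 to 55021107 reads in spleen and 44348579 to 60522646 in thymus, so that 1 read was worth 0.0156 to 0.0190 units in spleen and 0.00991 to 0.0135 in thymus. Of 14107 genes tested, 10717 (76.0%) were called, 5546 (39.3%) higher and 5171 (36.7%) lower in spleen, and the median difference over all genes was 0.03. An absolute log2 difference of at least 1 as well was found in 4678 genes (33.2%), of which 2464 (17.5% of those tested) were higher and 2214 (15.7%) lower. In 11120 genes (78.8%) no spleen library overlapped any thymus library. Replicates correlated at 0.9938 to 0.9943 within spleen and 0.991 to 0.9913 within thymus, against 0.7636 to 0.7865 across the organs (Pearson's r over genes, as a description).

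The scaling sets the level from which small differences are read. The signal of all genes summed to 856981 to 964001 in spleen and 589786 to 599804 in thymus, so the scaling in the deposited values differs between the organs. With these sums set equal, the median shift of the differences was -0.61, and the calls became 2768 higher and 8876 lower in spleen, or 23.8% of the calls higher in place of 51.7%. Small differences can change direction with the scale, and the value with equal totals is given where it turns one round.

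Core T cell genes were lower in spleen. All 23 tested genes of the T cell receptor complex and core T cell programme were called lower, with a median difference of -4.15, against a median of 0.03 over all genes and 36.7% of all genes called lower. Lck, the kinase that starts T cell receptor signalling, had a signal of 42.8, 41.9 and 41.9 in the spleens and 861, 902 and 769 in the thymi. Each thymus stood well above every spleen, and the difference was -4.30 ± 0.08 (adjusted p = 4.11e-11). Cd247, the zeta chain of the receptor complex, averaged 11.7 ± 0.639 in spleen and 305 ± 16.5 in thymus (SD, n = 3 each). Lat, the scaffold downstream of the receptor, averaged 14.8 ± 1.15 in spleen and 305 ± 7.30 in thymus. Trbc2, a constant segment of the receptor beta chain, differed by -5.24 ± 0.10, but it is a near copy of Trbc1 (-5.29 ± 0.11) and the split of reads between the pair is uncertain. Tcf7, a transcription factor of early T cell commitment, was lower by more, at -5.32 ± 0.11, and Cd2, an adhesion molecule also found on other lymphocytes, was the member closest to 0, at -1.62 ± 0.09.

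Most genes of immature thymocytes were lower in spleen as well. Of 19 tested, 17 were called lower in spleen and 2 higher, against 36.7% and 39.3% of all genes, with a median of -5.31. Some of the 17, such as Arpp21, passed the filter through the thymi alone and could only come out lower. Dntt, the polymerase that adds bases at receptor gene joints, had a signal of 1.04, 1.54 and 2.13 in the spleens and 1035, 1093 and 927 in the thymi. Rag1, a subunit of the enzyme that cuts receptor genes (mouse chromosome 2, 101638252 to 101649532, GRCm38), had 4.38, 7.26 and 9.66 in the spleens and 1525, 1918 and 1841 in the thymi. For both genes the groups were separated by more than the spread within either, with differences of -8.97 ± 0.16 and -7.91 ± 0.22. Arpp21 differed by -7.82 ± 0.11 and Ccr9, the receptor for the thymic chemokine Ccl25, by -6.70 ± 0.10. The coreceptor genes Cd8a and Cd4 differed by -5.51 ± 0.11 and -4.51 ± 0.08.

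Both immature thymocyte genes that ran the other way are also used outside the thymus. Cd24a encodes a surface protein that red cell precursors and B cells carry too. Its signal was 2699.5, 2208 and 2729.9 in the spleens and 148, 158 and 155 in the thymi, a difference of 4.04 ± 0.10. Dtx1, a Notch-regulated ligase that marginal zone B cells also express, averaged 21.3 ± 1.80 in spleen and 12.6 ± 3.02 in thymus, and its call did not hold with equal totals (adjusted p = 0.403). Its difference was 0.76 here, 1.55 in the irradiated paired-end libraries and -1.92, the other way, in the single-end libraries.

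Genes of mature and effector T cells split. Of 16 tested, 4 were called higher and 10 lower in spleen, with a median of -0.59, beside 39.3% and 36.7% of all genes. Those higher were Cd44, an activation and memory marker (1.90 ± 0.09), Klf2, a factor of cells ready to leave the thymus (1.19 ± 0.17), S1pr1, the exit receptor (0.87 ± 0.25), and Cxcr3, a receptor of effector cells (0.64 ± 0.23). S1pr1 and Cxcr3 overlapped between the organs, and neither was called with equal totals (adjusted p = 0.338 and 0.758). Cxcr3 was also not called without spleen replicate 1 or 3 or thymus replicate 2 (adjusted p = 0.074, 0.1 and 0.0903). Lower were Il2ra, the high affinity IL-2 receptor chain of early thymocytes and regulatory cells (-3.65 ± 0.11), Cd40lg (-2.47 ± 0.17), Icos (-2.24 ± 0.15) and Ctla4 (-1.70 ± 0.17), which are signals and brakes of activated T cells. Among 8 tested natural killer genes, the receptor gene Ncr1 was called higher (1.13 ± 0.15), but it passed the filter through the spleens alone and could only come out higher. The granule genes Gzma (-3.50 ± 0.16), Gzmb (-1.17 ± 0.34), Prf1 (-0.45 ± 0.16) and Nkg7 (-0.57 ± 0.22) were called lower. Gzmb overlapped between the organs, with 2.50 in spleen replicate 3 and 2.37 in thymus replicate 3. It differed by -1.56 in the irradiated paired-end and 0.23 in the single-end libraries. The calls of Prf1 and Nkg7 rested on single libraries. Prf1 was not called without spleen replicate 1 or 3 or thymus replicate 3 (adjusted p = 0.0654, 0.0821 and 0.106), nor was Nkg7 without spleen replicate 2 or 3 or thymus replicate 3 (adjusted p = 0.122, 0.0617 and 0.11).

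**Figure D1:**
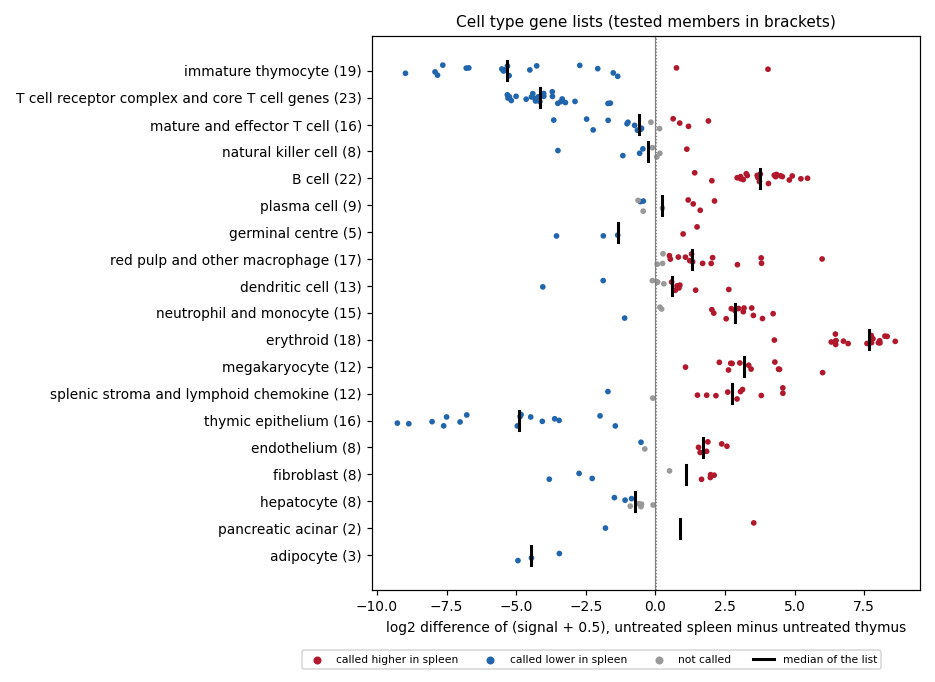
Log2 difference of each tested gene of 19 cell type lists (x axis, untreated spleen minus untreated thymus; list and number of genes on the y axis), with red points called higher and blue points called lower in spleen, grey points not called, black bars the list medians and a dotted line the median of all genes. The 22 B cell and 18 erythroid genes all lie to the right of 0, and the 23 core T cell and 16 thymic epithelial genes all lie to the left.

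Genes of the thymic epithelium were lower in spleen. All 16 tested thymic epithelial genes were called lower in spleen, against 36.7% of all genes, with a median of -4.91. Without any 1 thymus, 3 of the 16 were called, since the others then missed the filter of 3 libraries, and all 16 were called with a filter of 2 libraries, an alternative added after seeing the data. Those others passed the filter through the thymi alone, so they could only come out lower in spleen. Prss16, a serine protease of the thymic cortex (mouse chromosome 13, 22002176 to 22009741, GRCm38), gave the lowest difference of all tested genes. It had a signal of 0.314, 0.327 and 0.304 in the spleens and 499, 522 and 483 in the thymi, a difference of -9.27 ± 0.08 (adjusted p = 1.65e-12). Tbata differed by -8.85 ± 0.09, and the keratin genes Krt8 and Krt18 of simple epithelium by -8.02 ± 0.12 and -7.96 ± 0.10. Psmb11, the proteasome subunit particular to cortical epithelium, had 0, 0 and 0.0190 in the spleens, which is a single read, and 87.0, 97.3 and 89.1 in the thymi. Foxn1, the master regulator of thymic epithelium, had no read in any spleen and 8.70, 11.1 and 12.5 in the thymi, at least 203-fold lower in spleen when 3 reads are taken as the limit of each library. Pax1 and Fezf2 also had no read in any spleen, which puts them at least 1024-fold and 149-fold lower. Aire, which lets medullary cells show self antigens, averaged 0.217 ± 0.0913 in spleen and 7.36 ± 0.941 in thymus.

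Genes of the spleen's own mesenchyme ran in the other direction. Of 12 genes of splenic stroma and lymphoid chemokines, 10 were called higher and 1 lower, with a median of 2.76. Without any 1 spleen, 5 were called higher, and 10 again with a filter of 2 libraries. The others of the 10 passed the filter through the spleens alone and could only come out higher. Tlx1, a homeobox gene needed for the spleen to form, had a signal of 13.3, 14.05 and 14.5 in the spleens and 0.144, 0.0396 and 0.135 in the thymi, a difference of 4.58 ± 0.12. Tcf21 (4.57 ± 0.20) and Nkx2-3 (3.80 ± 0.12), which also pattern the spleen, and Stab2, a scavenger receptor of sinus endothelium (2.93 ± 0.10), were higher as well. Cxcl13, which draws B cells into follicles, averaged 51.3 ± 3.41 in spleen and 6.69 ± 4.84 in thymus. Ccl21a, the T zone chemokine that thymic medulla also makes, was the member called lower (-1.71 ± 0.23). Endothelial genes were mostly higher in spleen, with 6 of 8 called higher and 1 lower. Of 8 fibroblast genes, 4 were called higher, among them the receptor gene Pdgfra (2.11 ± 0.16), and 3 lower, among them the matrix genes Lum (-3.81 ± 0.13) and Dcn (-2.74 ± 0.19). Lum passed the filter through the thymi alone and could only come out lower in spleen. The shares over all genes were 39.3% higher and 36.7% lower. Genes of fat and liver, which are neither organ's own cells, varied among the thymi. The summed signal of 8 adipocyte genes was 2.02, 1.99 and 1.499 in the spleens and 117, 40.3 and 218 in the thymi, and that of 10 hepatocyte genes was 55.9, 46.7 and 68.5 in the spleens and 225, 61.8 and 71.2 in the thymi. Fat genes were thus highest in thymus replicate 3 and liver genes in thymus replicate 1, and their part in the stromal differences was not tested.

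B cell genes were all higher in spleen. All 22 tested were called, with a median of 3.75, against 39.3% of all genes called higher. Spib, a transcription factor of B cells and plasmacytoid dendritic cells, had a signal of 197, 190.3 and 193 in the spleens and 28.2, 18.2 and 22.9 in the thymi (3.06 ± 0.13). Ebf1, the factor that commits cells to the B lineage, averaged 14.5 ± 1.22 in spleen and 1.46 ± 0.150 in thymus. The surface gene Ms4a1, which encodes CD20, had 236, 189 and 199 in the spleens and 15.5, 5.87 and 3.50 in the thymi. Thymus replicate 1 was the highest thymus, and the organs did not overlap. Igkc, the kappa light chain, was higher by 3.26 ± 0.17 and Ighm, the IgM heavy chain, by 2.03 ± 0.11.

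The later B cell stages were less uniform. Of 9 tested plasma cell genes, 4 were called higher and 2 lower, with a median of 0.25 that became -0.25 with equal totals. Among all genes, 39.3% were called higher and 36.7% lower. Jchain, which joins secreted IgM and IgA, averaged 76.6 ± 7.12 in spleen and 17.6 ± 5.24 in thymus (2.12 ± 0.17). Igha, the IgA heavy chain, had 6.55, 42.9 and 4.14 in the spleens and 14.4, 23.8 and 13.8 in the thymi, so spleen replicate 2 alone stood above the thymi and the difference of -0.62 ± 0.66 was not called; without that spleen it was -1.60 and called lower (adjusted p = 0.000306). Xbp1, which drives secretion in plasma cells and other secretory cells, was lower (-0.54 ± 0.08). Of 5 tested germinal centre genes, Gcsam and Gcnt2 were higher and Bcl6, S1pr2 and Fas lower. Bcl6, a repressor that thymocytes use too, averaged 12.1 ± 1.52 in spleen and 45.6 ± 6.26 in thymus.

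Myeloid genes were higher in spleen for most members. Over all genes, 39.3% were called higher and 36.7% lower. Of 17 macrophage genes tested, 14 were called higher and none lower, with a median of 1.30. With equal totals 11 were called higher and 3 lower, with a median of 0.68. Marco, a scavenger receptor of marginal zone macrophages, had a signal of 135, 102 and 132 in the spleens and 0.836, 0.961 and 3.23 in the thymi, with no overlap and a difference of 5.98 ± 0.32. Genes of iron recycling from old red cells were also higher, with Hmox1, which opens the heme ring, at 3.80 ± 0.14, Slc40a1, the iron exporter, at 2.94 ± 0.10, and Spic, the factor of red pulp macrophages, at 2.00 ± 0.20. C1qa, C1qb and C1qc, the complement genes that macrophages of both organs express, overlapped between the organs (0.07, 0.26 and 0.27, adjusted p = 0.723, 0.173 and 0.156), and all 3 were called lower with equal totals. Without spleen replicate 2, C1qb and C1qc were called higher (0.40 and 0.44, adjusted p = 0.041 and 0.0208), and C1qc was also called with the replicate number as a block (0.27, adjusted p = 0.04). Of 15 neutrophil and monocyte genes, 12 were called higher and 1 lower, led by the granule gene Ngp (4.23 ± 0.24), Camp (3.84 ± 0.16) and S100a9 (3.52 ± 0.18). Without any 1 spleen, 7 were called higher, and 12 again with a filter of 2 libraries. The others of the 12 passed the filter through the spleens alone and could only come out higher. Mmp9, a matrix protease, was the one lower (-1.10 ± 0.14).

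Among 13 dendritic cell genes, 7 were called higher and 2 lower on the authors' scale, against 2 higher and 5 lower with equal totals. On the authors' scale 39.3% of all genes were called higher and 36.7% lower. Zbtb46, a factor of classical dendritic cells, averaged 16.1 ± 2.20 in spleen and 2.17 ± 0.309 in thymus (2.63 ± 0.14). The chemokine genes Ccl22 and Ccl17, which thymic dendritic and epithelial cells make, were the pair called lower. Ccl17 passed the filter through the thymi alone and could only come out lower in spleen. Ccl22 had 3.72, 4.31 and 5.77 in the spleens and 93.6, 68.4 and 87.7 in the thymi, a difference of -4.04 ± 0.16.

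**Figure D2:**
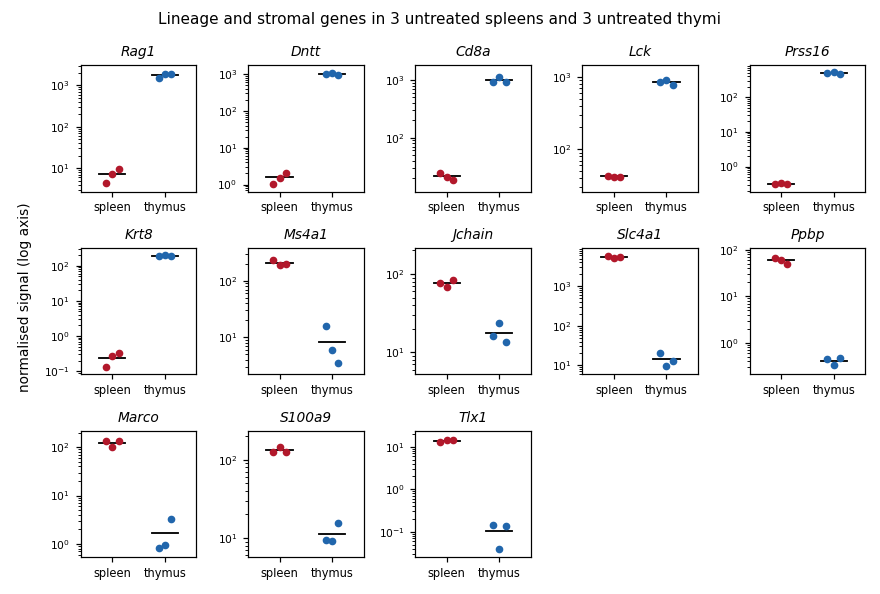
Normalised signal (y axis, log scale, set for each gene) of 13 lineage and stromal genes in 3 untreated spleens (red, left) and 3 untreated thymi (blue, right), 1 point a library and a bar at the mean of each organ. No gene shown overlaps between the organs, and Ms4a1 spread more on the log axis among the thymi, 3.50 to 15.5, than among the spleens, 189 to 236.

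The highest differences of all tested genes were in red cell genes. All 18 tested of 20 listed erythroid genes were called higher in spleen, against 39.3% of all genes, with a median of 7.67. They made up 13.6% to 18.2% of the reads in spleen and 0.225% to 0.452% in thymus. Hbb-b1, a beta globin gene, was not on this list, so the share leaves out its reads. Klf1 and Epor passed the filter through the spleens alone and could only come out higher there. The 10 highest differences among called genes with no overlap and a mean signal of at least 5 in the higher organ included Slc4a1, Rhd, Ank1, Ermap, Rhag, Trim10, Add2, Car2 and Tal1, which are red cell membrane, blood group, skeleton and enzyme genes with a transcription factor of blood formation. Slc4a1, the anion exchanger of the red cell membrane (mouse chromosome 11, 102348820 to 102365281, GRCm38), had a signal of 5722, 5059.9 and 5646 in the spleens and 20.8, 9.39 and 12.5 in the thymi. The lowest spleen was far above the highest thymus, and the difference was 8.61 ± 0.22 (adjusted p = 2.84e-10).

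Genes that mark precursors rather than finished red cells were among them. Klf1, the factor that turns on adult globin, had a signal of 202, 198 and 265 in the spleens and 0.671, 0.476 and 0.446 in the thymi (7.75 ± 0.14). Gata1, the central factor of red cells and megakaryocytes, averaged 229 ± 12.7 in spleen and 1.63 ± 0.0702 in thymus, and Epor, the erythropoietin receptor, 112 ± 11.8 in spleen and 0.769 ± 0.0937 in thymus. Tfrc, the transferrin receptor that brings iron into dividing and heme-making cells, had the smallest difference of the list, at 4.27 ± 0.16. Summed over 4 globin genes (Hba-a1, Hba-a2, Hbb-b1 and Hbb-bs, whose near-identical copies make the split between them uncertain), reads amounted to 22.2%, 16% and 22.1% of the spleen libraries and 0.578%, 0.271% and 0.283% of the thymus libraries. Spleen replicate 2 was the lowest spleen and thymus replicate 1 the highest thymus.

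Promoters of the erythroid genes were searched because these genes moved together and Gata1 was among them. The WGATAA motif that GATA factors bind, written AGATAA or TGATAA and sought on both strands, was found in 12 of 17 promoter windows of the list (70.6%), the windows being the 250 bases before each annotated start. It was found in 9.78% of 13508 windows of all tested genes. The CCNCNCCC letters of the KLF type were in 47.1% of the erythroid windows and 62.3% of all windows. A match is letters in a window and not a measured binding site. The 100 bases before the start of 4 of these genes are shown from RefSeq (GRCm38.p6), on the gene's strand, with each WGATAA match, in either orientation, in capitals. They are Klf1 at chr8:84901882-84901981 (+), Rhag at chr17:40811049-40811148 (+), Rhd at chr4:134864436-134864535 (+) and Epor at chr9:21963577-21963676 (-). The start used for Rhag lies inside the gene, whose span begins at 40811099, so the Rhag match also lies within that span.
Klf1: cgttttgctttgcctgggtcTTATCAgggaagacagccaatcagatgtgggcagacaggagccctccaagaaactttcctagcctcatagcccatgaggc
Rhag: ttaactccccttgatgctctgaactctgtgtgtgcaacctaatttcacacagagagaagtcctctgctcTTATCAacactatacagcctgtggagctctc
Rhd: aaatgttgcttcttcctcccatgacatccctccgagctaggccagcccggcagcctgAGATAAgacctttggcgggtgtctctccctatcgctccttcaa
Epor: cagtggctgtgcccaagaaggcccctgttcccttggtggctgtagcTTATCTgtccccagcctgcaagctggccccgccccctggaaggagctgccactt

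All 12 megakaryocyte and platelet genes were called higher in spleen as well, against 39.3% of all genes, with a median of 3.19. Without any 1 spleen, 3 of the 12 stayed in the test and were called, since the others then missed the filter of 3 libraries, and with a filter of 2 libraries all 12 were called. Those others passed the filter through the spleens alone, so they could only come out higher in spleen. Ppbp, a platelet granule chemokine, had a signal of 67.1, 60.6 and 48.7 in the spleens and 0.444, 0.337 and 0.473 in the thymi (6.004 ± 0.14). The platelet receptor genes Gp9 (4.42 ± 0.12) and Itga2b (4.29 ± 0.13) and the platelet tubulin gene Tubb1 (4.46 ± 0.13) did not overlap between the organs either.

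Cell cycle genes were higher in spleen throughout. All 32 genes of DNA replication and S phase were called higher, with a median of 1.30, and all 30 genes of mitosis and G2/M were, with a median of 1.18. Of all 14107 genes, 39.3% were called higher and 36.7% lower, and with equal totals 2768 were called higher and 8876 lower. With equal totals the medians were 0.67 and 0.55, and the calls were 28 higher and 0 lower of 32 and 21 higher and 1 lower of 30, the one lower being Bub1b, a checkpoint kinase (0.25 ± 0.10 on the authors' scale and -0.37 with equal totals; -0.07 after quantile scaling). Mki67, the usual marker of cycling cells, had a signal of 2465, 2422 and 2530.2 in the spleens and 471, 557 and 498 in the thymi, a difference of 2.28 ± 0.09 (adjusted p = 7.01e-09). Ccne1, the cyclin of S phase entry, had 169.8, 169 and 165 in the spleens and 21.9, 25.004 and 21.7 in the thymi (2.85 ± 0.08). The replication licensing genes Orc1 and Cdc6 differed by 2.62 ± 0.09 and 2.28 ± 0.09, and Fen1, which trims lagging strand fragments, by 2.02 ± 0.08. Top2a, the topoisomerase of dividing cells, differed by only 0.38 ± 0.10 (adjusted p = 0.00661) and by -0.25 with equal totals and -0.09 after quantile scaling.

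Erythroid genes, many of which belong to dividing precursors, moved in the same direction as these lists, and their part in the cell cycle difference was not tested. The summed signal of the 18 erythroid genes, which leave out Hbb-b1, was 175461, 116395 and 173385 in the spleens and 2667, 1347 and 1406 in the thymi. Over the 32 S phase genes the sum was 7033, 7902 and 7304 in the spleens and 2702, 3243 and 2701 in the thymi, and over the 30 G2/M genes it was 8719, 8444 and 8887 in the spleens and 3294, 3942 and 3255 in the thymi. The spleen lowest in erythroid genes, replicate 2, was thus the highest in S phase genes and the lowest in G2/M genes, and among the thymi replicate 2 was highest in both.

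Promoters of cell cycle genes carry known elements, and these were counted in the same windows. An E2F site, written TTTGGCGC, TTTCCCGC, TTTGCCGC or TTTCGCGC on either strand, was in 8 of 30 S phase windows (26.7%) and in 3.18% of all windows. The CHR element, written TTTGAA or TTCGAA on either strand, was in 12 of 27 G2/M windows (44.4%) and in 12.7% of all windows. For each element a pair of genes that hold it is shown with the matches in capitals, again from RefSeq (GRCm38.p6) on the gene's strand up to the start. E2F matches are shown in Mcm6, a subunit of the replicative helicase, at chr1:128359706-128359825 (-), where 2 matches overlap in the first run of capitals, and in Orc1 at chr4:108579354-108579453 (+). The start used for Orc1 lies inside the gene, whose span begins at 108575705. CHR matches are shown in Cdk1, the kinase of mitotic entry, at chr10:69352913-69353012 (-), and in Kif11, a spindle motor, at chr19:37376282-37376381 (+).
Mcm6: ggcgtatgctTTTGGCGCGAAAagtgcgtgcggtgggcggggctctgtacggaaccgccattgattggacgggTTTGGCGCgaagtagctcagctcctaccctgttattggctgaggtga
Orc1: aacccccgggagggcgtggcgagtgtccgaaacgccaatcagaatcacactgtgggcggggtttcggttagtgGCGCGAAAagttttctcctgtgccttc
Cdk1: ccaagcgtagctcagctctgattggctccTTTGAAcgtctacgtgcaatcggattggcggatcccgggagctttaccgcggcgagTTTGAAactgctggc
Kif11: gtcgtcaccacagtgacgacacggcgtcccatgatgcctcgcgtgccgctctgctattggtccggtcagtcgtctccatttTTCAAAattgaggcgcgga
These 4 genes differed by 1.04 ± 0.09 (Mcm6), 2.62 ± 0.09 (Orc1), 1.33 ± 0.09 (Cdk1) and 0.65 ± 0.08 (Kif11), and Kif11 was not called with equal totals (0.03, adjusted p = 0.812).

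Regulators of the cycle were less uniform than its machinery. Of 28 tested cyclins, kinases, inhibitors and pocket proteins, 16 were called higher and 6 lower, with a median of 0.45 that became -0.18 with equal totals (9 higher and 13 lower). The shares of all genes on the authors' scale were 39.3% higher and 36.7% lower. Tfdp2, the partner of E2F factors, had a signal of 606, 402 and 499 in the spleens and 56.0, 56.3 and 47.1 in the thymi (3.21 ± 0.14). E2f4, an E2F factor needed for red cell formation in mice, averaged 348 ± 15.03 in spleen and 86.8 ± 1.35 in thymus, and E2f8 and E2f2 differed by 1.99 ± 0.09 and 1.88 ± 0.10. Inhibitors of the cyclin-dependent kinases and pocket proteins, which hold the cycle back, were called in both directions. The pocket protein gene Rb1 had a signal of 188, 186 and 157 in the spleens and 49.5, 61.2 and 55.6 in the thymi (1.67 ± 0.10), and Cdkn2c and Cdkn2d were higher by 1.27 ± 0.10 and 0.65 ± 0.13, though Cdkn2d was not called with equal totals (0.03). Rbl1 was higher by 0.54 ± 0.09 and stood at -0.09, not called, with equal totals. Among the members called lower, Cdkn1c averaged 1.04 ± 0.129 in spleen and 6.21 ± 0.330 in thymus (-2.13 ± 0.12), and Cdkn2b, Cdkn1a and Rbl2 differed by -1.64 ± 0.20, -1.31 ± 0.18 and -1.01 ± 0.09. The count called lower was 3 without thymus replicate 3 (5 with a filter of 2 libraries). Myc, a driver of growth, had 33.8, 51.4 and 36.7 in the spleens and 40.8, 45.3 and 44.4 in the thymi, so spleen replicate 2 lay above all thymi and the other spleens below them, and the difference of -0.12 ± 0.14 was not called (adjusted p = 0.444; -0.74 and called lower with equal totals). Without that spleen, Myc was called lower (-0.30, adjusted p = 0.0125).

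**Figure D3:**
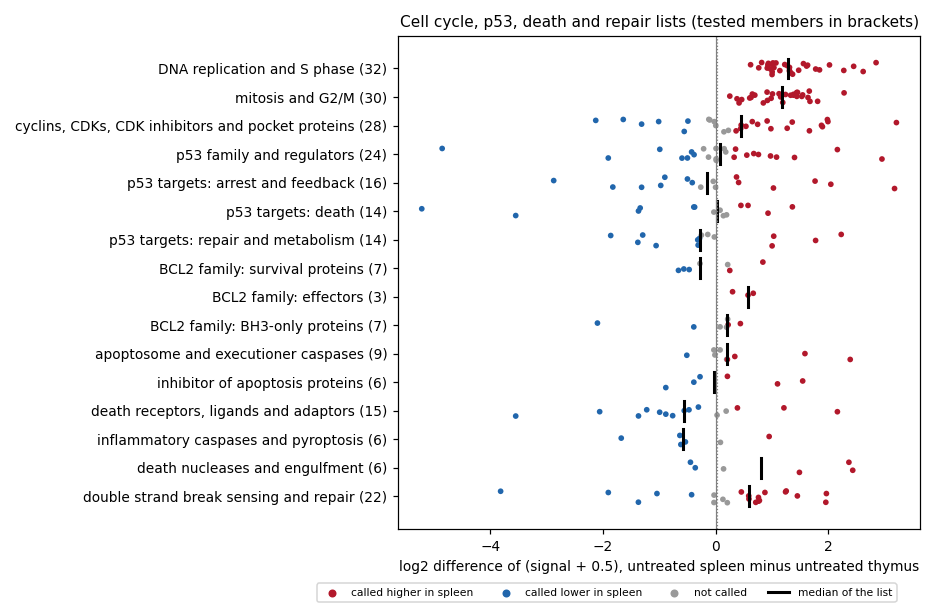
Log2 difference of each tested gene of 16 cell cycle, p53, death and repair lists (x axis, untreated spleen minus untreated thymus; list and number of genes on the y axis), coloured by call, with black bars for the list medians. The 32 S phase and 30 G2/M genes all lie to the right of 0, while the p53 lists lie on both sides with medians between -0.27 and 0.08; with equal totals the p53 medians lie between -0.85 and -0.54 and the S phase and G2/M medians stay above 0.

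Trp53 itself differed little between the organs. Its signal was 114, 128 and 124 in the spleens and 94.0, 95.9 and 101 in the thymi (mouse chromosome 11, 69580348 to 69591873, GRCm38). Every spleen lay above every thymus, and the difference of 0.33 ± 0.07 was called (adjusted p = 0.00212), but it was -0.30 with equal totals and was not called after quantile scaling (0.03, adjusted p = 0.687). Over 24 tested genes of the p53 family and its regulators, 10 were called higher and 7 lower, with a median of 0.08, close to the 39.3% and 36.7% of all genes, and the split became 5 higher and 16 lower with equal totals. Mdm2, the ligase that destroys p53 and is itself a p53 target, had 47.2, 42.6 and 47.6 in the spleens and 64.4, 65.5 and 65.0 in the thymi (-0.50 ± 0.07). Its partner Mdm4 averaged 33.4 ± 2.92 in spleen and 50.9 ± 6.98 in thymus (-0.60 ± 0.11). Atm, the kinase that senses broken DNA, was lower by a similar step (-0.43 ± 0.11), whereas Chek2, which it activates, averaged 54.6 ± 0.328 in spleen and 11.8 ± 0.554 in thymus (2.16 ± 0.08).

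Larger regulator differences lay elsewhere in the list. Hipk2, a kinase of the p53 death programme, averaged 41.6 ± 3.59 in spleen and 4.92 ± 0.381 in thymus (2.96 ± 0.10). Ppm1d, the phosphatase that ends the p53 response, differed by 1.40 ± 0.10 and Kmt5a, a methyltransferase that acts on p53, by 1.08 ± 0.07. The p53 relative Trp63, which epithelium uses and which is also on the thymic epithelial list, had 0.111, 0.109 and 0.0759 in the spleens and 18.6, 16.2 and 15.96 in the thymi (-4.86 ± 0.12). Trp63 passed the filter through the thymi alone and could only come out lower in spleen. Setd7, another methyltransferase with p53 among its substrates, differed by -1.91 ± 0.09.

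Untreated p53 targets did not share a direction. Nor did all genes tested, of which 39.3% were called higher and 36.7% lower, with a median of 0.03. Of 16 arrest and feedback targets, 6 were called higher and 7 lower, with a median of -0.15, a split close to that of all genes. Cdkn1a, the p21 inhibitor and best known target (mouse chromosome 17, 29090979 to 29100722, GRCm38), had a signal of 4.88, 3.74 and 6.32 in the spleens and 12.5, 11.1 and 15.4 in the thymi. All spleens were below all thymi, and the difference was -1.31 ± 0.18 (adjusted p = 7.16e-05). Trp53inp1, which helps p53 in death and autophagy, gave the largest lower difference of the list, with 48.5, 41.5 and 39.0 in the spleens and 300.0, 329 and 324 in the thymi (-2.88 ± 0.09). Sfn, a 14-3-3 protein of epithelium, Phlda3, an AKT inhibitor, Zmat3, an RNA-binding p53 effector, and Ccng1, which feeds back on Mdm2, differed by -1.83 ± 0.10, -0.97 ± 0.16, -0.90 ± 0.13 and -0.41 ± 0.07. Among those higher, the stress gene Gadd45a had 81.3, 55.3 and 74.1 in the spleens and 6.05, 8.26 and 7.46 in the thymi (3.18 ± 0.15), and Pml, Sesn2 and Plk2 differed by 2.05 ± 0.07, 1.77 ± 0.15 and 1.03 ± 0.14.

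Of 14 death targets of p53, 4 were called higher and 6 lower, with a median of 0.03 that became -0.60 with equal totals. All genes tested had 39.3% called higher and 36.7% lower, and their median became -0.57 with equal totals. Fas, the death receptor, had a signal of 3.09, 2.73 and 3.40 in the spleens and 41.4, 42.5 and 39.8 in the thymi (-3.55 ± 0.10, adjusted p = 6.72e-10). Perp, a desmosome and death gene of epithelium, averaged 0.236 ± 0.109 in spleen and 26.8 ± 1.38 in thymus (-5.22 ± 0.14), and Tnfrsf10b, a receptor for the TRAIL ligand, 1.44 ± 0.332 in spleen and 4.49 ± 0.598 in thymus. Perp passed the filter through the thymi alone and could only come out lower in spleen. Pidd1, an adaptor of caspase-2 activation, was higher (1.36 ± 0.12), as was Siva1 (0.93 ± 0.12). Of 14 targets in repair and metabolism, 4 were called higher and 7 lower, to be read beside the same shares of all genes. Gls2, mitochondrial glutaminase, averaged 4.82 ± 0.408 in spleen and 0.633 ± 0.123 in thymus, while the damage recognition genes Ddb2 and Xpc differed by -1.38 ± 0.09 and -1.29 ± 0.09. Gls2 passed the filter through the spleens alone and could only come out higher there.

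**Figure D4:**
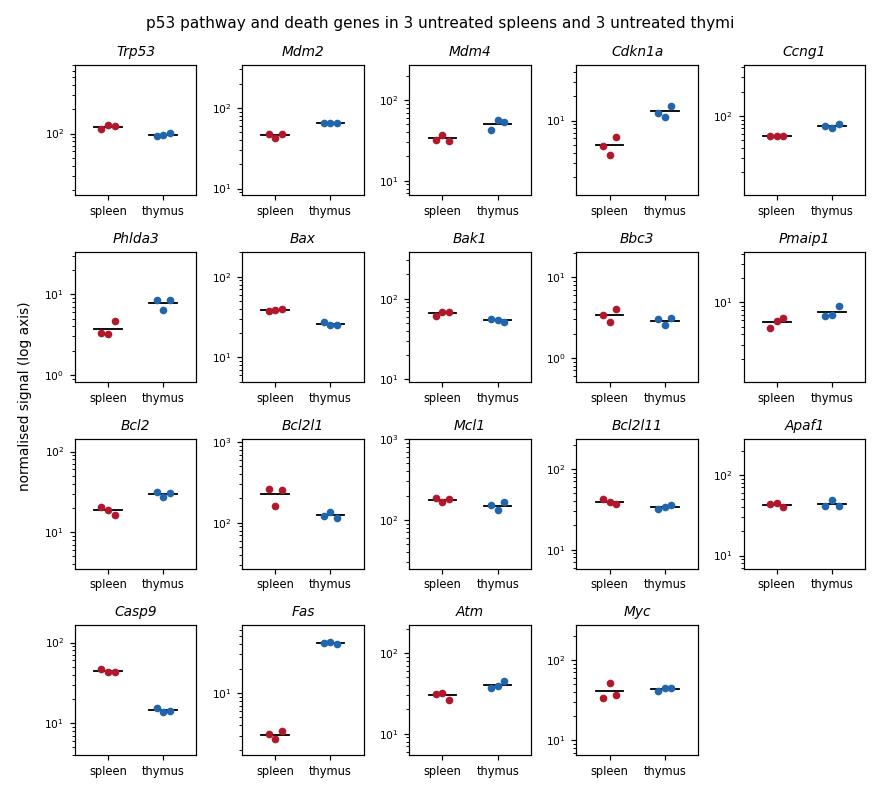
Normalised signal (y axis, log scale, set for each gene) of 19 p53 pathway and death genes in 3 untreated spleens (red, left) and 3 untreated thymi (blue, right), 1 point a library and a bar at the mean of each organ. Fas stands at 2.73 to 3.40 in spleen and 39.8 to 42.5 in thymus, while Trp53, Bak1, Mcl1 and Bcl2l11 differ by 0.33 or less on the log2 scale and run the other way with equal totals, as does Bax (-0.04).

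In the mitochondrial pathway the 7 tested survival genes did not share a direction, with 2 called higher and 3 lower (0 higher and 6 lower with equal totals). Neither did all 14107 genes, with 39.3% called higher and 36.7% lower (2768 higher and 8876 lower with equal totals). Bcl2, which mature lymphocytes rely on, had a signal of 20.8, 18.9 and 16.2 in the spleens and 31.3, 26.9 and 30.8 in the thymi (-0.66 ± 0.11). Bcl2l1, which encodes BCL-XL and is the survival gene of CD4+CD8+ thymocytes and of red cell precursors, had 258, 163 and 258 in the spleens and 121, 135 and 114 in the thymi (0.84 ± 0.16). Spleen replicate 2 was the lowest spleen for Bcl2l1 as for the erythroid sum, and with equal totals Bcl2l1 was not called (0.21, adjusted p = 0.157). Mcl1, a short-lived survival protein, averaged 179 ± 11.8 in spleen and 150.2 ± 15.3 in thymus. Its difference of 0.25 ± 0.09 was -0.37 with equal totals and -0.10 after quantile scaling, and its call was lost when spleen replicate 1 or 3 or thymus replicate 1 or 2 was left out (adjusted p = 0.0505 to 0.116). The Bcl2a1 copies Bcl2a1d (-0.56 ± 0.15) and Bcl2a1b (-0.47 ± 0.14) are near-identical, and their shares are uncertain. Bcl2a1b was not called without thymus replicate 3 (adjusted p = 0.0516).

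The 3 effectors that open the mitochondrial membrane were all called higher in spleen on the authors' scale, whereas with equal totals none was called higher and Bak1 was called lower. Bax had 37.7, 38.5 and 40.3 in the spleens and 27.8, 24.97 and 24.9 in the thymi (0.58 ± 0.08; -0.04 with equal totals). Bak1 differed by 0.30 ± 0.08 (-0.32 with equal totals) and Bok by 0.67 ± 0.15 (0.09 with equal totals). Of 7 tested BH3-only genes, which set off the effectors, 2 were called higher and 2 lower, beside 39.3% and 36.7% of all genes. Bmf, which responds to loss of attachment, showed the one difference above 1, with 19.9, 22.01 and 18.4 in the spleens and 90.8, 101 and 73.1 in the thymi (-2.10 ± 0.12). Bcl2l11, which encodes BIM, the main killer of unselected thymocytes, had 42.9, 38.7 and 36.8 in the spleens and 32.0, 33.7 and 35.3 in the thymi. Its difference of 0.22 ± 0.09 was called at an adjusted p of 0.0347, was lost without any 1 of spleen replicates 1 and 2 and thymus replicates 1 and 2 (adjusted p = 0.0519 to 0.13), and was -0.40 with equal totals. The p53-induced killers differed little. Bbc3, which encodes PUMA, had 3.42, 2.79 and 4.06 in the spleens and 3.02, 2.56 and 3.14 in the thymi (0.20 ± 0.15, adjusted p = 0.249), and it was called lower with equal totals (-0.35). Pmaip1, which encodes NOXA, differed by -0.39 ± 0.15, a call lost without spleen replicate 1 or 2 or thymus replicate 3 (adjusted p = 0.056 to 0.142).

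Downstream of the mitochondrion, 4 of 9 apoptosome and caspase genes were called higher and 1 lower, against 2 higher and 7 lower with equal totals. The count called higher was near the 39.3% of all genes on the authors' scale, where 36.7% were called lower. Casp9, the initiator caspase of the apoptosome, had 46.7, 43.3 and 42.7 in the spleens and 15.2, 13.9 and 13.98 in the thymi (1.59 ± 0.08; 0.97 with equal totals). Htra2, a mitochondrial protease that frees caspases, averaged 52.4 ± 4.35 in spleen and 9.58 ± 0.803 in thymus (2.39 ± 0.10). Apaf1, the apoptosome scaffold, had 44.0, 44.9 and 39.4 in the spleens and 40.8, 48.9 and 41.6 in the thymi, and its difference of -0.03 ± 0.09 was not called, although it was called lower with equal totals (-0.65). Casp6, an executioner caspase, differed by -0.51 ± 0.08. Among 6 inhibitors of apoptosis, Naip2 (1.55 ± 0.14) and Naip5 (1.10 ± 0.12), which are also sensors of bacterial flagellin and secretion proteins in macrophages, were higher, and Birc6 (-0.88 ± 0.11), Birc2 (-0.39 ± 0.08) and Xiap (-0.28 ± 0.08) were lower. The call of Xiap was lost without spleen replicate 3 (adjusted p = 0.0581).

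The receptor-driven route was lower in spleen for most members. Of 15 tested death receptor, ligand and adaptor genes, 3 were called higher and 10 lower, with a median of -0.56, against 36.7% of all genes called lower. Besides Fas, the TRAIL ligand gene Tnfsf10 averaged 3.69 ± 0.522 in spleen and 16.9 ± 0.677 in thymus (-2.06 ± 0.12), and Cflar, which restrains caspase-8, 39.6 ± 2.72 in spleen and 79.4 ± 6.27 in thymus (-0.99 ± 0.09). Higher were Tnfrsf21, death receptor 6 (2.16 ± 0.11), Mlkl, the necroptosis effector (1.21 ± 0.13), and Ripk1 (0.39 ± 0.09; -0.23 with equal totals). Of 6 inflammatory caspase and pyroptosis genes, 4 were called lower, led by the adaptor Pycard (-1.68 ± 0.10), and Nlrp3, an inflammasome sensor of myeloid cells, was higher (0.95 ± 0.12). Of 6 death nucleases tested, 3 were called higher and 2 lower, beside 39.3% and 36.7% of all genes. Dnase1l1 (2.44 ± 0.11), the lysosomal Dnase2a (2.37 ± 0.13) with which macrophages digest expelled red cell nuclei, and Dnase1l3 (1.49 ± 0.15) were higher, and the caspase-activated nuclease Dffb (-0.45 ± 0.11) with its chaperone Dffa (-0.36 ± 0.08) was lower.

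Genes of double strand break repair were called in both directions. Of 22 tested genes, 13 were called higher and 5 lower in spleen (5 higher and 9 lower with equal totals). On the authors' scale the shares of all genes were 39.3% higher and 36.7% lower. Among those higher were genes of homologous recombination, which works in cells that have copied their DNA. Brca1 had a signal of 129.7, 138 and 119.8 in the spleens and 31.5, 37.8 and 29.5 in the thymi (1.96 ± 0.10), and Brca2, Rad54l and Palb2 differed by 1.97 ± 0.11, 1.45 ± 0.10 and 1.24 ± 0.10. Among those lower were genes of end joining, which also closes the breaks that the Rag enzyme makes. Lig4, its ligase, had 3.87, 4.97 and 4.95 in the spleens and 63.2, 80.6 and 70.5 in the thymi, the widest gap of the list (-3.82 ± 0.12, adjusted p = 1.37e-09). Xrcc6, which encodes Ku70, had 68.5, 84.6 and 71.3 in the spleens and 273, 343 and 236 in the thymi (-1.91 ± 0.13). Xrcc4, the partner of the ligase, and Dclre1c, the hairpin-opening nuclease Artemis, differed by -1.37 ± 0.10 and -1.04 ± 0.10. Other members of the route overlapped between the organs and were not called, namely Prkdc (0.13), Xrcc5, which encodes Ku80 (-0.03), and Nhej1 (-0.03), though all 3 were called lower with equal totals.

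The same organ contrast was read in libraries that had no part in these calls. Of the 4678 genes called with an absolute log2 difference of at least 1, 4584 could be tested in the 6 irradiated paired-end libraries, where 4544 (99.1%) had the same direction and 4401 (96.0%) also had no overlap between organs, against 72.6% of all genes without overlap there. In the 6 single-end libraries 4168 could be tested, 4066 (97.6%) had the same direction and 3496 (83.9%) also had no overlap, against 50.5% of all genes. The single-end spleens are titled xray but carry a control treatment label, so organ and treatment cannot be told apart there. Erythroid medians were 7.83 in irradiated paired-end libraries and 8.25 in single-end libraries, beside 7.67 in untreated ones. S phase medians were 0.63 and 0.65 beside 1.30, and G2/M medians were 1.34 and 0.51 beside 1.18. Neutrophil and monocyte genes stood wider apart in the single-end libraries, with a median of 6.07 beside 2.85. Among single genes, Cdkn1a differed by 0.54 in irradiated paired-end and -0.95 in single-end libraries beside -1.31, Mdm2 by 0.64 and -0.75 beside -0.50, and the end joining gene Lig4 by -3.82 and -4.27 beside -3.82. Whether any organ difference changed with X-rays was not tested.

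**Figure D5:**
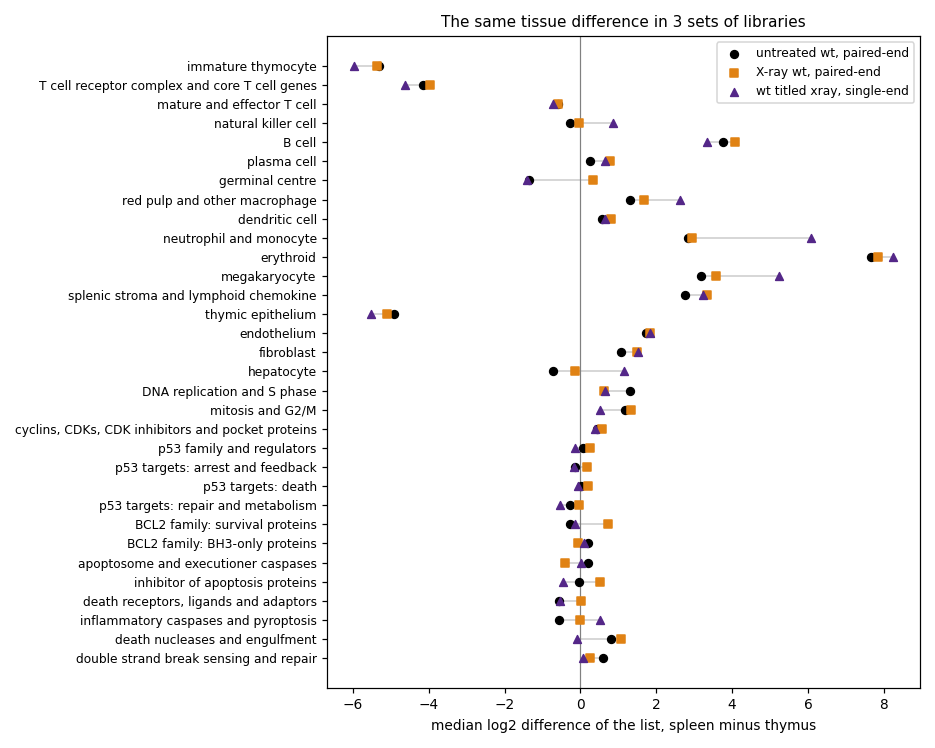
Median log2 difference of each list with at least 5 tested genes (x axis, spleen minus thymus; lists on the y axis) in untreated wt paired-end libraries (black circles), X-ray wt paired-end libraries (orange squares) and wt single-end libraries titled xray (purple triangles), each on its own table's scale. T cell and thymic epithelial lists lie left of 0 and B cell, erythroid and megakaryocyte lists right of 0 in all 3 sets, while the medians of most p53 and death lists lie within 0.6 of 0 in all 3.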

How the data were processed

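The 6 libraries are wt, untreated and paired-end, 3 of spleen and 3 of thymus, made from total RNA with a stranded kit, per the labels' protocols. The authors deposited a normalised signal per gene, and edgeR and mm10 are named per the submitters' processing notes. Aligner, counter and strand setting: not given in the sources used here. The deposited signal was found to be whole reads times 1 step per library (tolerance 0.01 of a step). Of 36 paired-end columns, 18 matched no library and were not used. Of 19001 rows, 18380 (96.73%) received a symbol.

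Genes that reached a signal of 1 in 3 or more of the 6 libraries were fitted with limma 3.58.1 (R 4.3.3; trend, Benjamini-Hochberg over all tested genes) on log2(signal + 0.5), which understates changes of low genes. A tested gene under a signal of 1 in every library of 1 organ could only come out higher in the other organ. The design named CPM; the unit proved to be a scaled signal, and the test stayed the same. edgeR 4.0.16 and DESeq2 1.42.0 were run on the recovered reads as alternatives. The code was tested on simulated data. Nothing in the labels says that libraries came from separate animals, so p-values may measure technical spread only. Deviations from the organ mean correlated at 0.278, 0.303 and 0.143 between libraries with the same replicate number. Between libraries with different numbers the correlations were -0.355 to 0.076. These values are weak and depend on each other, and a shared animal and a shared batch cannot be told apart. Whether the numbers pair the samples is thus not known, and the main fit used no pairing.

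The gene lists were chosen with earlier results of these data known. Named genes were a panel of 20, the 10 highest and 10 lowest differences, and up to 4 called members of each list per direction with the smallest p. Named beyond this rule, after their values were seen, were Trbc1, Tcf7, Cd2, Cd8a, Cd4, Foxn1, Pax1, Fezf2, Aire, Cxcl13, Ms4a1, Igkc, Ighm, Igha, Marco, Spic, the C1q and globin genes, Klf1, Tfrc, Bub1b, Top2a, Mcm6, Cdk1, Kif11, Rb1, Cdkn2c, Cdkn2d, Rbl1, Prkdc, Xrcc5 and Nhej1. A few genes under the rule are not reported here. Promoters and motifs were also chosen after the values were seen.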

Additional observations from a re-analysis of the deposited data

How the results depend on the processing

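The scaling mattered most. With equal total signal, 2768 genes were called higher and 8876 lower in spleen, or 1523 and 4334 with a log2 difference of at least 1. Counts per list then moved to 1 higher for immature thymocytes, 3 lower for macrophages, 1 lower for G2/M, 5 higher and 16 lower for p53 regulators, 11 lower for arrest targets, 2 higher and 10 lower for p53 death targets, and 5 higher and 9 lower for break repair. Of 188 named genes, 9 that were called on the authors' scale changed direction there: Bak1 (-0.32), Bax (-0.043), Bcl2l11 (-0.40), Bub1b (-0.37), Mcl1 (-0.37), Rbl1 (-0.086), Ripk1 (-0.23), Top2a (-0.25) and Trp53 (-0.30). Named genes not called on that scale are outside this count, and some of them, such as C1qa, C1qb, C1qc, Bbc3 and Prkdc, also turned. Among the called genes, quantile scaling turned Bub1b (-0.071), Mcl1 (-0.10) and Top2a (-0.092). The cause was not tested.

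A minimum mean signal of 5 left 1225 genes lower with a log2 difference of at least 1 and 2 repair and metabolism targets of p53 higher. Leaving out 1 library, the genes called, spleen minus thymus, numbered 9279 to 9786. The genes called lower in spleen, log2 difference of at least 1, then numbered 1347 to 2235 (1386, 1364 and 1347 without thymus replicates 1, 2 and 3) and 3 to 16 thymic epithelial genes were called lower (3 without any 1 thymus), because genes present only in thymus then fail the filter of 3 libraries. With a filter of 2 libraries, added after seeing the data, 10324 to 10603 genes were called, and 2224 to 2355 were lower by at least 1. The p53 death targets lower numbered 3 to 6, with 3 without thymus replicate 3. The repair and metabolism targets were 2 to 4 higher, with 2 without any 1 spleen, and 3 to 6 lower, with 4 without thymus replicate 1 and 3 without thymus replicate 3. With a filter of 2 libraries, 4 were lower without thymus replicate 1 or 3.

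With the replicate number as a block, 11009 genes were called in place of 10717, and C1qc was the 1 named gene of 188 whose call changed. edgeR called 10653 genes and DESeq2 10639. Genes with no read in any spleen, such as Foxn1, have only a bound on their fold.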

Other observations

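Some gene groups were drawn up after the values were seen and are given as description. All 8 tested enzymes of heme synthesis were called higher in spleen, with a median log2 difference of 5.28. Segments of receptor genes were picked by the letters of their names. Of 121 tested genes picked as T cell receptor variable, diversity and joining segments, 120 were called lower in spleen, with a median of -2.13. These letters also match Tradd, which is not a segment. Of 153 tested genes picked as immunoglobulin segments, 151 were called higher, with a median of 2.08. This set took in Ighd, the IgD constant gene (5.22), which is also on the B cell list. A segment that passed the filter through 1 organ alone could only come out higher in that organ. Over all genes, 39.3% were called higher and 36.7% lower in spleen. Of 13 mitochondrially encoded protein genes, none was called higher and 2 were called lower, with a median of -0.08.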
